A study of Homo sapiens with 16 samples.

Results

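The genes described here are 10 imprinted genes, H19, IGF2, KCNQ1OT1, MEG3, DLK1, SNRPN, PEG3, PEG10, MEST and PLAGL1, in BE2C, an established human line of MYCN-amplified neuroblastoma. They were chosen by name, and each was measured over its GENCODE body in hg19 with 10 kb on each side, as 10 of 38690 protein-coding and lncRNA genes of chromosomes 1 to 22 and X measured in the same way. All 10 were found in the annotation and none was filtered out. The measurements were CUT&Tag region lists for histone H3 trimethylated at lysine 27 (H3K27me3), a mark of repressed chromatin, and for histone H3 monomethylated at lysine 4 (H3K4me1), a mark of enhancers. CUT&Tag uses an antibody to direct a transposase to the marked chromatin, which it cuts and tags for sequencing.

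Imprinted genes are expressed mainly from one parental copy. The choice is set in the germ line by DNA methylation of an imprinting control region, often a CpG-rich stretch at a promoter, and is then kept by proteins such as ZFP57, TRIM28 and DNMT1. H3K27me3 can add a further layer at such domains, and KDM6B removes this mark. IGF2, H19 and DLK1 are known for high expression in fetal tissues and in embryonal tumours.

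The 16 libraries fell into 8 groups of 2 replicates. Cells given the siRNA oligo siKDM6B33 against KDM6B were compared with cells given a control oligo (siCtrl), and cells given 2.5 µM GSKJ4, an inhibitor of KDM6 demethylases, were compared with cells given 0.1% DMSO, each for 72 h and for each mark, which makes 4 comparisons. All of them used 1 cell line, and the knockdown used 1 KDM6B oligo. The labels do not say that replicates came from separate cultures, and the lists hold no transcripts, so neither the knockdown nor the expression of an imprinted gene can be read from them. At HAND2 and GATA3, transcription factor genes of the sympathetic lineage, H3K4me1 islands were present in all 8 H3K4me1 libraries.

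The lists hold regions and no read totals. The genome background in the narrow peak lists, the mean number of tags expected at a base, gives relative depth only. For H3K27me3 it was 0.0539 and 0.0529 with siKDM6B33 against 0.0395 and 0.0401 with siCtrl, and 0.0507 and 0.0371 with GSKJ4 against 0.0298 and 0.0338 with DMSO. For H3K4me1 it was 0.107 and 0.105 against 0.0902 and 0.0849 after knockdown, and 0.0547 and 0.0559 with GSKJ4 against 0.0569 and 0.0483 with DMSO. Covered length and peak number differed between groups. After knockdown, islands covered 114.4 to 114.6 Mb with H3K4me1 and 87.3 to 89.8 Mb with H3K27me3, against 98.6 to 103.0 Mb and 53.7 to 54.2 Mb with siCtrl. GSKJ4 replicate 1 of H3K27me3 stood apart, with 16676 islands and 61200 narrow peaks against 8006 and 40590 in replicate 2 and at most 7398 and 34712 with DMSO. The H3K27me3 islands of the compound experiment lay largely in H3K4me1 islands, with 53.5% (DMSO) and 62.5% (GSKJ4) of the bases found in both replicates, against 9.17% (siCtrl) and 12.01% (siKDM6B33). The part of these differences in the results that follow was not tested, and the 2 experiments have separate controls, so levels are compared within an experiment.

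Short reference sequences are shown for the control elements to which the results refer. Upstream of H19, between this gene and IGF2, the insulator protein CTCF is known to bind a set of repeats on the unmethylated maternal copy. The motif GGNGGCAG, a core of the CTCF site, was searched on both strands. It had 34 matches in the H19 window, and 6 of them shared at least 25 of 30 bases with another match. These repeat copies are printed 5′ to 3′ on the minus strand of GRCh37, which is the strand of H19, with the motif in capitals.
H19 repeat copy a, chr11:2021187-2021216: agtggccgcgcGGCGGCAGtgcaggctcac
H19 repeat copy b, chr11:2021593-2021622: ggtggctgcgcGGCGGCAGtgcaggctcac
H19 repeat copy c, chr11:2021999-2022028: agtggccgcgtGGCGGCAGtgcaggctcac
H19 repeat copy d, chr11:2023432-2023461: agtggccgcgcGGCGGCAGtgcaggctcac
H19 repeat copy e, chr11:2023833-2023862: agtggccgcgcGGCGGCAGtgcaggctccc
H19 repeat copy f, chr11:2024238-2024267: agtggccgcgcGGCGGCAGtgcaggctcac

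The copies held 4 distinct sequences, the commonest in 3 copies, and lay 2126 to 5177 bp upstream of the H19 start at base 2019072. A longer annotated H19 transcript starts within this stretch, at base 2022536. The hexamer TGCCGC, which ZFP57 reads when its CpG is methylated, was searched on both strands in the same way. The matches below are those in the CpG-rich stretch at the SNRPN start, which differed between groups, and the tandem matches in the CpG-rich stretch at the KCNQ1OT1 start, which was marked in every H3K4me1 library. Each is printed 5′ to 3′ on the strand named, in GRCh37, with the hexamer in capitals.
SNRPN match a, minus strand, chr15:25200023-25200052: ggcgtgcttgttTGCCGCagtgcaggggtc
SNRPN match b, plus strand, chr15:25200098-25200127: gtgtgcgaagccTGCCGCtgctgcagcgag
SNRPN match c, plus strand, chr15:25201190-25201219: caatgcctacacTGCCGCaggggctgcaga
KCNQ1OT1 match a, plus strand, chr11:2720684-2720713: ccgccgggagagTGCCGCgctgaggagccc
KCNQ1OT1 match b, plus strand, chr11:2720712-2720741: ccccggggagagTGCCGCgctgaggagccc
KCNQ1OT1 match c, plus strand, chr11:2720739-2720768: cccccaggagagTGCCGCgctgaggaggcc

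Neither motif is rare. Of 56002 windows that reach 1000 bp to each side of a protein-coding transcription start, 57.2% held the hexamer and 65.1% held the CTCF core, so a match describes the sequence and names no bound site.

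The level of a mark was taken as island coverage, the percent of a gene window that the authors' broad regions (islands) covered. In the 4 H3K4me1 libraries of the knockdown experiment, the mean coverage was 76.1% ± 8.72 at IGF2, 76.1% ± 2.19 at DLK1, 49.6% ± 13.7 at MEG3 and 39.97% ± 5.62 at H19 (SD, n = 4 each). PEG10 had 28.6% and KCNQ1OT1 had 14.2%, while PEG3, SNRPN and PLAGL1 had 2.86%, 1.03% and 0.693%. In the 4 libraries of the compound experiment, IGF2 had 74.9% ± 1.17, DLK1 had 73.8% ± 1.05, MEG3 had 45.8% ± 1.15 and H19 had 41.3% ± 3.57 (SD, n = 4 each). PEG10 had 12.9% and KCNQ1OT1 had 10.3% there, while PLAGL1 and PEG3 had 0.9702% and 0.888% and SNRPN was listed at 0. MEST was listed at 0 in all 8 libraries. IGF2 and DLK1 lay above 98.96% of all genes in the knockdown experiment, and above 99.25% of them in the compound experiment. In both experiments the ranges over libraries separated DLK1 from MEG3, H19 from PEG10, and KCNQ1OT1 from the members below it. Those of PEG10 and KCNQ1OT1 were apart in the knockdown experiment and overlapped in the compound experiment, and the other neighbours overlapped. The lowest value of IGF2, 64.2%, lay just under the highest of MEG3, 65.4%, both in the knockdown experiment.

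For H3K27me3, in the 4 libraries of the knockdown experiment, the mean coverage was 0 to 8.22% at every member, and MEG3, SNRPN and MEST were at 0. In the 4 libraries of the compound experiment, DLK1 had 60.8% ± 10.3 and IGF2 had 56.6% ± 13.4 (SD, n = 4 each). H19 had 36.8% ± 5.24 and MEG3 had 35.2% ± 7.61 there (SD, n = 4 each), with ranges apart from those of DLK1 and IGF2 and from those of all other members. PEG10, PLAGL1 and KCNQ1OT1 had means of 10.2%, 6.76% and 4.08%, and SNRPN, PEG3 and MEST were at 0. Of the H3K27me3 bases shared by both replicates at H19, IGF2, MEG3 and DLK1, 95.6% to 100% lay inside H3K4me1 islands with DMSO or GSKJ4. Over the whole genome the share was 53.5% with DMSO and 62.5% with GSKJ4, against 9.17% with siCtrl and 12.01% with siKDM6B33. The source of this difference between the experiments was not tested. The lists do not separate parental alleles or cells, so marks on different alleles or in different cells cannot be told apart.

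**Figure D1:**
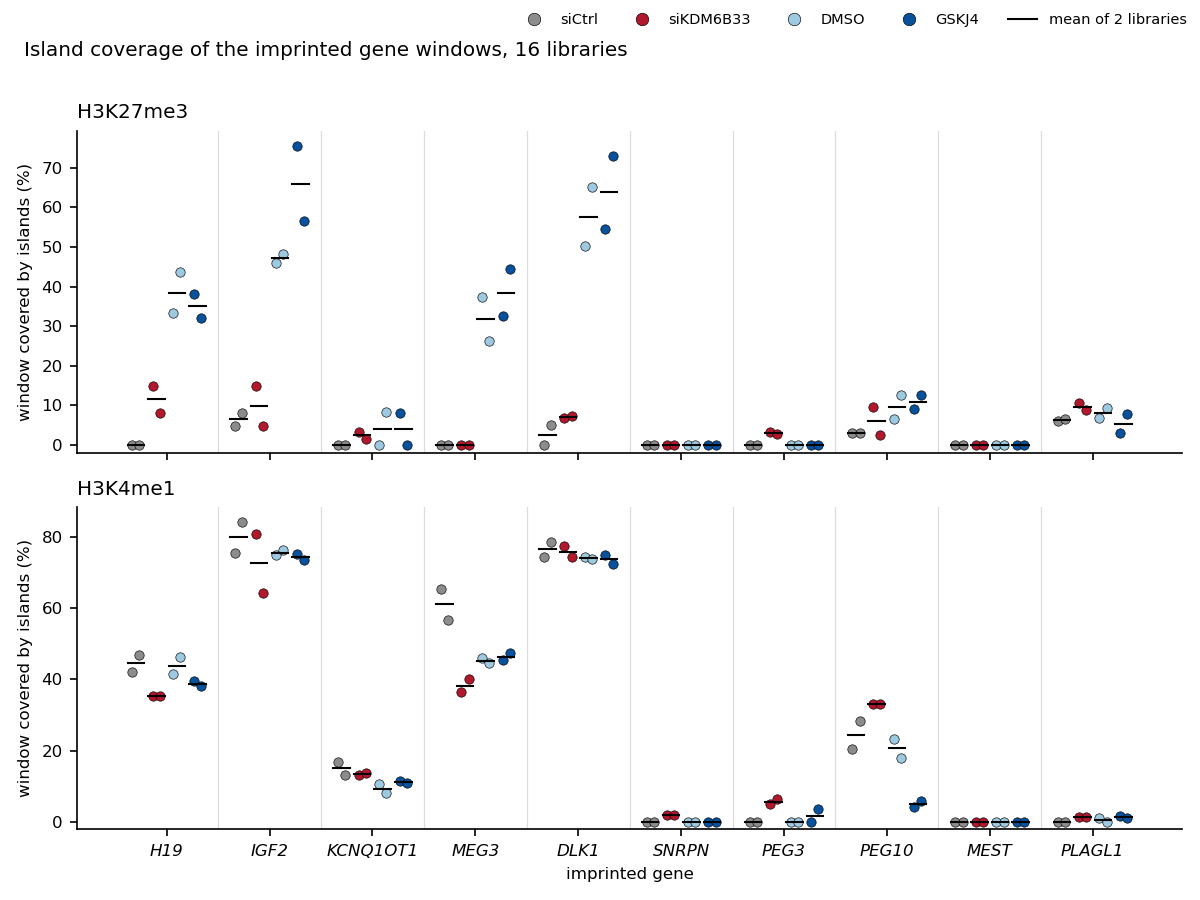
Percent of each imprinted gene window covered by islands (vertical axis) in the 16 libraries, with H3K27me3 above and H3K4me1 below; points are libraries, coloured by treatment, and lines are means of 2 libraries. H3K4me1 covered 64.2% to 84.1% of the IGF2 window, and MEST was at 0 in every library.

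To assess whether KDM6B depletion changed H3K27me3 at these genes, the siKDM6B33 libraries were compared with siCtrl. A gene was counted as higher or lower where both treated libraries lay above or below both controls. H3K27me3 coverage was higher at 5 members, H19, KCNQ1OT1, DLK1, PEG3 and PLAGL1, and lower at 0, beside 10.7% of all genes higher and 2.89% lower. The members' median difference was 2.98 percentage points, beside 0 for all genes, of which 72.5% were at 0 in all 4 libraries. When each library was cut to the same covered length, only H19 and PLAGL1 stayed higher and IGF2 became lower. For every such separation in either experiment the exact two-sided permutation test gave p = 0.333, the smallest p that 2 libraries against 2 allow, so no single difference could pass a usual threshold.

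With GSKJ4, H3K27me3 coverage was higher at 1 member, IGF2, and lower at 0, beside 4.82% and 3.85% of all genes. The members' median difference was 0, as it was for all genes. Without GSKJ4 replicate 1, the library that stood apart, IGF2, MEG3 and DLK1 were higher and H19 was lower.

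For H3K4me1 the knockdown gave both directions. Coverage was higher at 4 members, SNRPN, PEG3, PEG10 and PLAGL1, and lower at 2, H19 and MEG3, beside 37.3% of all genes higher and 10.3% lower. SNRPN, PEG3 and PLAGL1 had no H3K4me1 island in either siCtrl library. At equal covered length PEG3 was no longer higher, while the other 5 calls held.

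With GSKJ4, H3K4me1 coverage was higher at 2 members, KCNQ1OT1 and PLAGL1, and lower at 2, H19 and PEG10, beside 9.26% and 7.77% of all genes. H19 was therefore lower in H3K4me1 in both experiments, while PEG10 was higher after knockdown and lower with GSKJ4. The members' median difference was −0.308 percentage points after knockdown and 0 with GSKJ4, beside 0 for all genes in both.

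Narrow peaks, the sharper regions of the second list, were counted by their summits in each window. After knockdown, H3K27me3 peaks were more numerous at 3 members and fewer at 0, beside 10.1% and 3.76% of all genes. IGF2 had 0 peaks in both siCtrl libraries and 2 in both siKDM6B33 libraries, SNRPN had 1 and 1 against 2 and 2, and PLAGL1 had 9 and 8 against 12 and 13. The SNRPN peaks held 2 tags each at the summit, and that call was lost at a −log10 q of at least 2. With GSKJ4, H3K27me3 peaks were more numerous only at KCNQ1OT1, with 0 and 0 against 2 and 2, and fewer at 0 members, beside 14.3% and 2.19% of all genes.

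H3K4me1 peaks after knockdown were more numerous at 3 members and fewer at 3, beside 30.2% and 12.2% of all genes. Of those with fewer peaks, H19 had 14 and 13 peaks with siCtrl against 9 and 11, IGF2 had 22 and 24 against 14 and 17, and MEG3 had 28 and 32 against 22 and 22. The 3 with more were SNRPN, with 1 and 1 against 2 and 2, PEG10, with 7 and 7 against 8 and 9, and PLAGL1, with 1 and 0 against 4 and 4. With GSKJ4, H3K4me1 peaks were more numerous at 0 members and fewer only at H19, with 9 and 7 against 5 and 6, beside 10.1% and 6.68% of all genes. MEST had no narrow peak of either mark in its window in any of the 16 libraries.

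**Figure D2:**
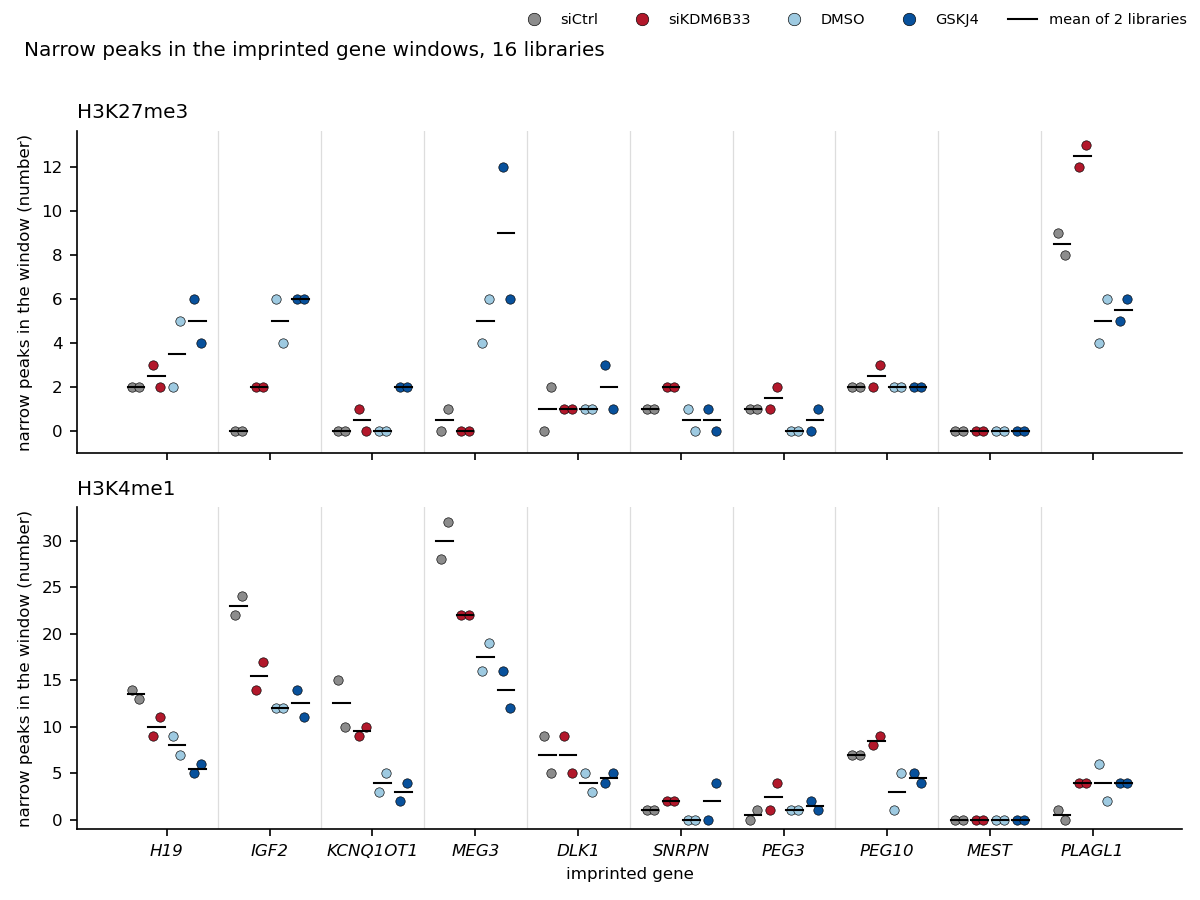
Number of narrow peaks with a summit in each imprinted gene window (vertical axis) in the 16 libraries, with H3K27me3 above and H3K4me1 below; points are libraries, coloured by treatment, and lines are means of 2 libraries. MEG3 held the most H3K4me1 peaks with siCtrl, 28 and 32, and had 22 in both siKDM6B33 libraries.

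Among the growth ligands, IGF2, which encodes insulin-like growth factor 2 and is expressed from the paternal copy, lies on chromosome 11 from 2150342 to 2179621 on the minus strand (ENSG00000167244). Its body overlaps INS-IGF2 and IGF2-AS. H3K4me1 covered 75.5% and 84.1% of its window with siCtrl and 80.8% and 64.2% with siKDM6B33, and 74.7% and 76.3% with DMSO against 75.1% and 73.5% with GSKJ4. The groups overlapped in both experiments, so IGF2 kept broad H3K4me1 throughout.

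H3K27me3 at IGF2 covered 4.87% and 8.12% with siCtrl and 15.02% and 4.87% with siKDM6B33, which overlapped. In the compound experiment it covered 45.9% and 48.3% with DMSO and 75.5% and 56.5% with GSKJ4, a difference of 18.9 percentage points between means of 47.1% ± 1.72 and 66.0% ± 13.5 (SD, n = 2 each, exact permutation p = 0.333). Both treated libraries lay above both controls, but they differed from each other by as much as the means did. Outside H3K4me1 islands this separation was lost. Its strongest narrow peak in both marks mostly lay at base 2187578, upstream of the first IGF2 start and inside an exon of the neighbouring gene TH, which encodes tyrosine hydroxylase.

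DLK1 encodes a ligand related to Delta of the Notch pathway, is expressed from the paternal copy and is known in the adrenal medulla and sympathetic lineage. It lies on chromosome 14 from 101192042 to 101204561 on the plus strand (ENSG00000185559). H3K4me1 covered 74.3% and 78.6% of the window with siCtrl, 77.4% and 74.3% with siKDM6B33, 74.3% and 73.7% with DMSO and 74.9% and 72.4% with GSKJ4. These values spanned 72.4% to 78.6%, and the groups overlapped in both experiments.

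H3K27me3 at DLK1 covered 0 and 4.92% with siCtrl and 6.77% and 7.38% with siKDM6B33, a difference of 4.61 percentage points. The islands of both siKDM6B33 libraries and of siCtrl replicate 2 lay over the DLK1 start. At equal covered length the difference reversed to −2.46 percentage points. The DMSO libraries had 50.3% and 65.1% and the GSKJ4 libraries had 54.6% and 73.1%, which overlapped.

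Among the noncoding RNAs, H19, which is expressed from the maternal copy and shares enhancers with IGF2, has an annotated body on chromosome 11 from 2016396 to 2025782 on the minus strand (ENSG00000130600). H3K4me1 covered 42.2% and 46.9% of its window with siCtrl and 35.4% in both siKDM6B33 libraries, a difference of −9.13 percentage points. It covered 41.5% and 46.2% with DMSO and 39.4% and 38.1% with GSKJ4, a difference of −5.10 percentage points. The treated libraries lay below both controls in each experiment, in every alternative tried.

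The H3K4me1 island at H19 came from the downstream side, where the known enhancers of H19 and IGF2 lie, and its last base before the repeats was between 2016600 and 2018600 in all 8 libraries. The treated libraries ended nearer to the downstream side, at base 2016800 in both siKDM6B33 libraries and at base 2016600 in both GSKJ4 libraries, against 2017600 and 2018600 in both control groups. A second H3K4me1 island on the upstream side, beginning between 2034201 and 2034801, was found in all 6 libraries without siKDM6B33 and in neither siKDM6B33 library.

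H3K27me3 at H19 covered 0 in both siCtrl libraries and 14.97% and 8.17% with siKDM6B33. These islands, from 2007001 to 2011400 and from 2008001 to 2010400, lay in the downstream flank, where the strongest peak is in an intron of MRPL23-AS1, so the gene itself was not covered. In the compound experiment H3K27me3 covered 33.4% and 43.6% with DMSO and 38.1% and 32.0% with GSKJ4, which overlapped.

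The repeats printed above were free of islands in all 16 libraries. Around the stretch from 2021187 to 2024267, the gap between islands was 15.6 to 385.8 kb, and the nearest island, of H3K27me3 in DMSO replicate 2, ended 1987 bp before it. Narrow peaks in the stretch numbered 2 over the 16 libraries, both of H3K4me1 with DMSO, 1 in each replicate, with a summit of 3 and 2 tags. The repeats thus lay in an interval without islands in every group.

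**Figure D3:**
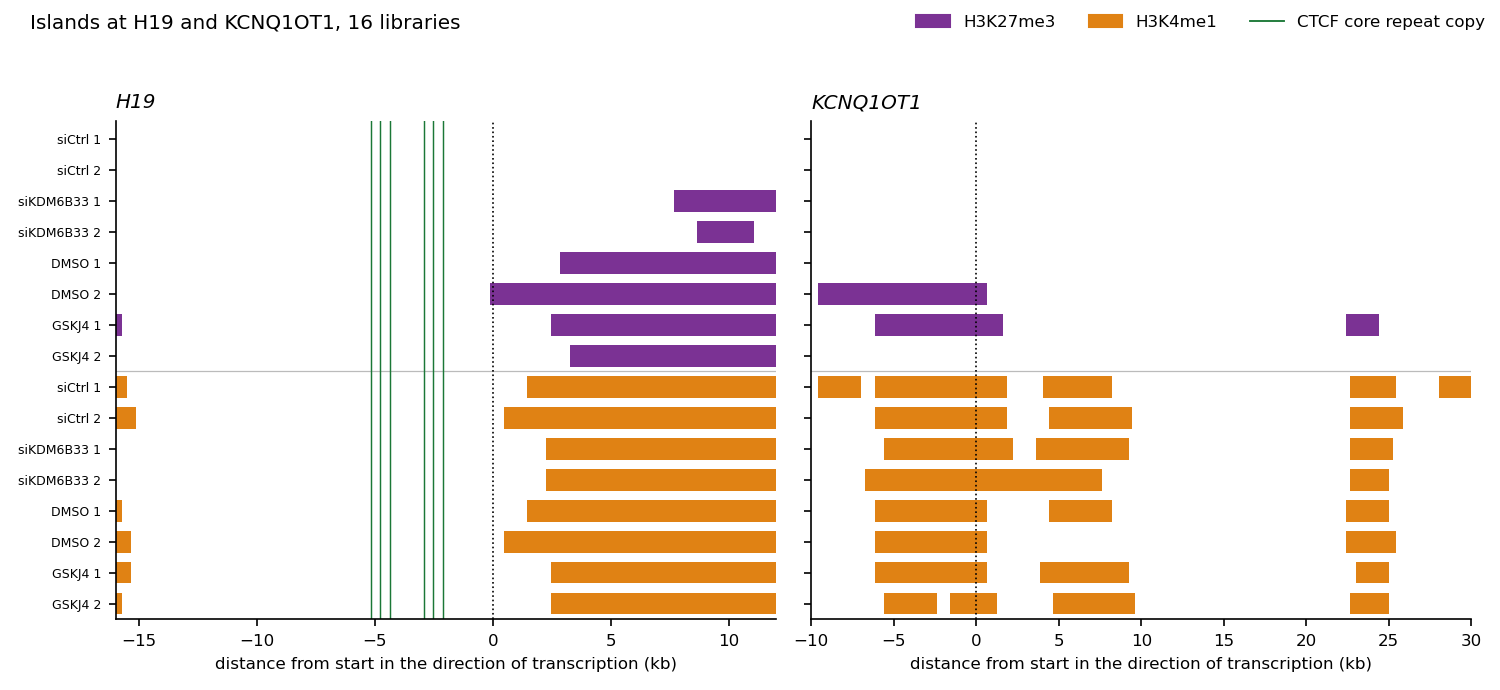
Islands in the 16 libraries around H19 (left) and KCNQ1OT1 (right), by distance in kb from the transcription start (dotted line) in the direction of transcription; purple bars are H3K27me3, orange bars H3K4me1 and green lines the 6 CTCF core repeat copies. At H19 no island crossed the repeats, and at KCNQ1OT1 an H3K4me1 island lay over the start in all 8 H3K4me1 libraries.

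KCNQ1OT1, a long RNA transcribed from the paternal copy that is known to silence its neighbours, lies on chromosome 11 from 2618538 to 2721233 on the minus strand (ENSG00000269821), wholly inside KCNQ1, so marks in its body cannot be assigned to one of these genes. H3K4me1 covered 16.8% and 13.2% of the window with siCtrl and 13.0% and 13.7% with siKDM6B33. It covered 10.8% and 7.99% with DMSO and 11.6% and 10.9% with GSKJ4, a difference of 1.87 percentage points. The first pair of groups overlapped, and in the second both treated libraries lay above both controls.

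The CpG-rich stretch at the KCNQ1OT1 start, from 2720068 to 2722210, is the known imprinting control region of the domain and held 6 hexamers. H3K4me1 islands covered 75.1% to 100% of it in all 8 libraries. H3K27me3 islands covered it in 2 of 8, DMSO replicate 2 (75.1%) and GSKJ4 replicate 1 (100%). After knockdown the H3K27me3 islands of the window, 3.26% and 1.63% of it against 0 in both siCtrl libraries, lay elsewhere, from 2611201 and 2613201 to 2615200, past the 3′ end of KCNQ1OT1 within KCNQ1.

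MEG3, a maternally expressed RNA with growth-suppressing activity, lies downstream of DLK1 on chromosome 14 from 101245747 to 101327368 on the plus strand (ENSG00000214548) and overlaps MIR493HG. H3K4me1 covered 65.4% and 56.7% of its window with siCtrl and 36.4% and 40.01% with siKDM6B33, the largest change in H3K4me1 coverage among the members after knockdown, −22.8 percentage points (means 61.0% ± 6.15 and 38.2% ± 2.54, SD, n = 2 each, exact permutation p = 0.333). With DMSO it covered 45.9% and 44.5% and with GSKJ4 45.5% and 47.3%, which overlapped. Only the groups of the knockdown experiment were apart.

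The difference lay in several places. The island at the 5′ end of MEG3 reached to 101259600 and 101259800 with siCtrl but only to 101252400 and 101253400 with siKDM6B33. Toward the 3′ end, stretches of 1 kb on each side of the starts at 101321755 and 101323582 were covered in full by H3K4me1 in both siCtrl libraries and not at all in the siKDM6B33 libraries. Around the first start, 101245747, the cover was complete in all 8 libraries. At the cluster of 11 starts from 101292435 to 101292532, H3K4me1 covered 100% and 52.3% with siCtrl and 100% in both siKDM6B33 libraries, but 100% and 52.3% with DMSO against 0 in both GSKJ4 libraries. The groups of the compound experiment thus separated at this cluster while their coverage of the whole window overlapped. No H3K27me3 island lay at MEG3 in the knockdown experiment, where 1 narrow peak of 2 tags was called in siCtrl replicate 2. H3K27me3 covered 37.4% and 26.4% with DMSO and 32.5% and 44.3% with GSKJ4, which overlapped.

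SNRPN, which encodes a protein of the small nuclear ribonucleoprotein core and lies in the Prader-Willi region, had an H3K4me1 island at its start after knockdown and in no other group. It lies on chromosome 15 from 25068784 to 25223870 on the plus strand (ENSG00000128739) and overlaps SNURF and SNHG14. H3K4me1 islands of 3.6 kb covered the bases from 25199801 to 25203400 and from 25199601 to 25203200 in the 2 siKDM6B33 libraries, which is 2.06% of the window in each, and the other 6 H3K4me1 libraries had none. They spanned 4 of the 7 annotated starts and the whole of the CpG-rich stretch from 25199922 to 25201413 that holds the 3 SNRPN hexamers printed above. Such islands within 1 kb of a start were also found at more of all genes after knockdown, 43.6% in both siKDM6B33 libraries against 21.7% and 21.8% with siCtrl. No H3K27me3 island lay in the SNRPN window in any library.

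PEG3, a paternally expressed zinc finger gene, lies on chromosome 19 from 57321445 to 57352096 on the minus strand (ENSG00000198300) and overlaps ZIM2. H3K4me1 covered 5.13% and 6.32% of its window with siKDM6B33 and 0 with siCtrl, and 0 in both DMSO libraries against 0 and 3.55% with GSKJ4. H3K27me3 covered 3.16% and 2.76% with siKDM6B33 and 0 in the 6 other libraries. All of these islands lay within 3.10 kb of the 5′ end of the gene. The CpG-rich stretch from 57349862 to 57350544 was covered over 100% by H3K4me1 in both siKDM6B33 libraries, and over 100% and 50.4% by H3K27me3. A stretch of 1 kb there was covered by both marks in both siKDM6B33 replicates.

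PEG10, derived from a retrotransposon gag and pol gene and expressed from the paternal copy, lies on chromosome 7 from 94285637 to 94299007 on the plus strand (ENSG00000242265). It starts beside SGCE, which overlaps it on the opposite side. H3K4me1 covered 20.4% and 28.2% of the window with siCtrl and 33.0% in both siKDM6B33 libraries, a difference of 8.69 percentage points. It covered 23.4% and 17.98% with DMSO and 4.20% and 5.99% with GSKJ4, a difference of −15.6 percentage points. PEG10 was the only member whose H3K4me1 coverage separated in opposite directions in the 2 experiments, and both calls held in every alternative tried. Genes of the other lists, such as GATA3, GNAS and RTL1, also separated in opposite directions. The share of all genes that did so was not counted.

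An H3K4me1 island upstream of PEG10, beginning −9.84 to −7.04 kb from its start, was found in all 6 libraries without GSKJ4 and in neither GSKJ4 library. This island cannot be assigned to PEG10 or SGCE. H3K4me1 coverage of SGCE was also lower with GSKJ4, with 8.14% and 6.17% against 3.81% and 3.94%. A second island lay at or just after the PEG10 start in all 8. It began at −2.84 and −2.24 kb with siKDM6B33 and at −1.44 and −1.04 kb with DMSO. With siCtrl it began at 0.964 kb in replicate 1 and at −1.64 kb in replicate 2, and with GSKJ4 it began at 0.964 kb in both libraries and was 1.4 and 2 kb long. GSKJ4 thus differed from DMSO on both sides of the start, while the siCtrl replicates differed from each other in the second island. H3K27me3 covered 3.00% in both siCtrl libraries, 9.59% and 2.40% with siKDM6B33, 6.59% and 12.6% with DMSO and 8.99% and 12.6% with GSKJ4, and the groups overlapped.

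**Figure D4:**
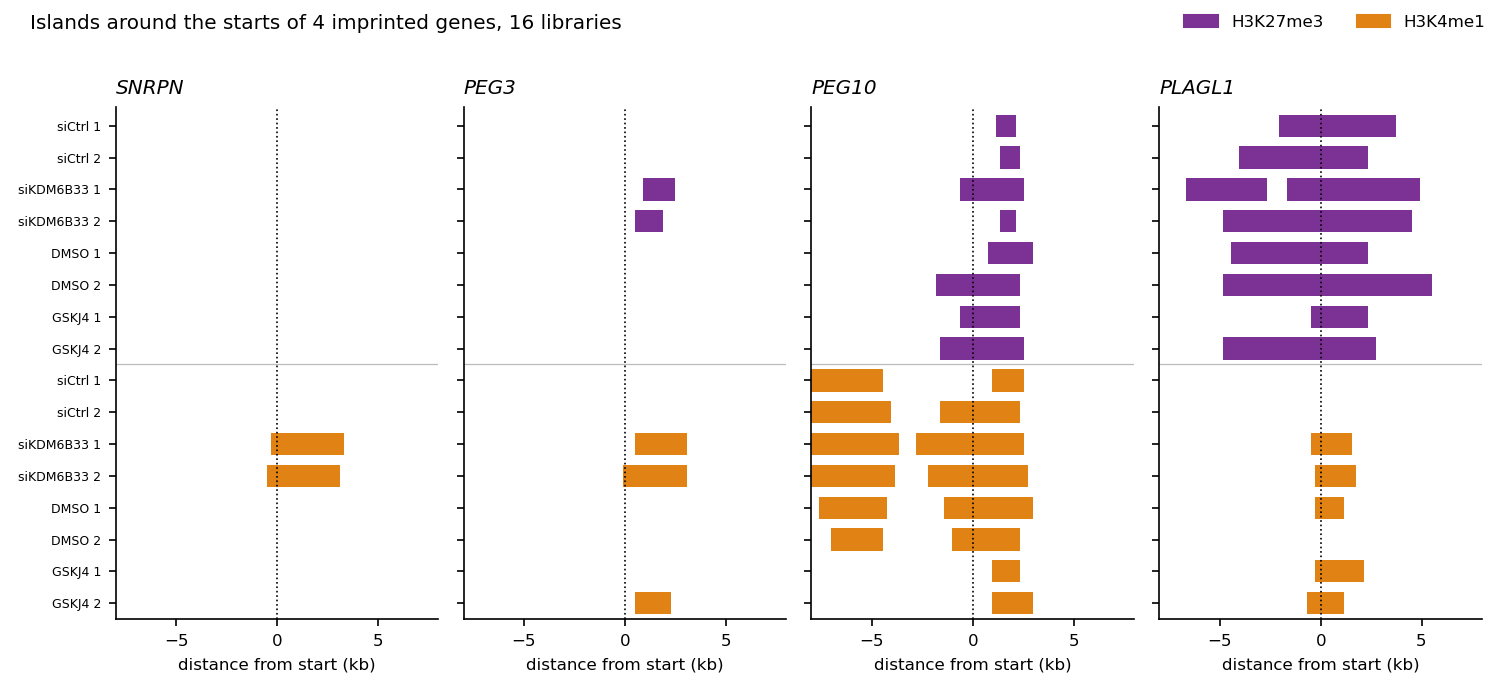
Islands in the 16 libraries around the starts of SNRPN, PEG3, PEG10 and PLAGL1, by distance in kb from the start (dotted line) in the direction of transcription; purple bars are H3K27me3 and orange bars H3K4me1. At SNRPN only the 2 siKDM6B33 libraries held an H3K4me1 island, and at PEG10 the upstream island was missing in both GSKJ4 libraries.

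MEST, a paternally expressed gene of the hydrolase fold family, lies on chromosome 7 from 130126012 to 130146306 on the plus strand (ENSG00000106484) and overlaps MESTIT1 and COPG2. Its window held no island of either mark in any of the 16 libraries. Its CpG-rich stretches at starts, from 130125752 to 130126988 and from 130130338 to 130133136, held 2 and 7 hexamers and were the only such stretches over a start that no island covered.

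PLAGL1, a zinc finger transcription factor expressed from the paternal copy, lies on chromosome 6 from 144261437 to 144385736 on the minus strand (ENSG00000118495) and shares its imprinted start with HYMAI. Its H3K27me3 lay mostly outside H3K4me1 islands. H3K27me3 covered 5.96% and 6.65% of the window with siCtrl and 10.5% and 8.87% with siKDM6B33, a difference of 3.40 percentage points between means of 6.31% ± 0.490 and 9.70% ± 1.18 (SD, n = 2 each, exact permutation p = 0.333). Both treated libraries lay above both controls in every alternative tried. The DMSO libraries had 6.93% and 9.42% and the GSKJ4 libraries 2.91% and 7.76%, which overlapped.

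The H3K27me3 islands of PLAGL1 lay over its CpG-rich starts in all 8 libraries, at 144328663 to 144330140, the start shared with HYMAI, and at 144384488 to 144386221, the first start. H3K4me1 islands covered the first start in 5 of 8 libraries and the shared start in 0 of 8. Of 7 kb of H3K27me3 in both siCtrl replicates none lay in H3K4me1 islands, and of 11.8 kb in both siKDM6B33 replicates 15.3% did. Of 9.8 kb with DMSO none did, and of 4.2 kb with GSKJ4 33.3% did. H3K4me1 at PLAGL1 covered 0 in both siCtrl libraries and 1.39% in both siKDM6B33 libraries, and 0.9702% and 0 with DMSO against 1.66% and 1.25% with GSKJ4. The second of these differences, 0.9702 percentage points, reversed to −0.485 at equal covered length.

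Across the members, 28 CpG-rich stretches (at least 500 bp) were found in the reference, and 12 of them, from 9 members, lay over a start. The hexamer was present in 11 of these 12, beside 68.2% of 15635 such stretches over the start of any gene and 77.4% of the 10075 whose length lay in the range of the members'. H3K4me1 covered 9 of the 12 in at least 1 library and 4 in all 8, beside 73.7% and 13.7% of the 15635. H3K27me3 covered 9 in at least 1 library and 2, both at PLAGL1, in all 8, beside 34.4% and 12.5%. An H3K4me1 island lay within 1 kb of a start of 8 of the 10 members in both siKDM6B33 libraries, beside 43.6% of all genes in each. With siCtrl the counts were 5 and 6, beside 21.7% and 21.8%. They were 6 in both DMSO libraries, beside 20.4% and 18.7%, and 6 and 7 with GSKJ4, beside 16.8% and 17.5%. For H3K27me3 the counts were 2 to 7 members, against 12.7% to 18.6% of all genes.

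The height of narrow peaks gave a measure besides width. For each gene and mark, the place was taken where the strongest narrow peak of a library lay most often, and the tags at the summit were divided by the genome background of the library. In each library the strongest peak with a summit within 300 bp of that place was read, so libraries can differ in the summit used. This reads 1 place per gene, and other peaks of the gene can go the other way. Of the 6 members with such an H3K4me1 peak in all 4 libraries of the knockdown experiment, 5 were lower after knockdown, H19, IGF2, KCNQ1OT1, MEG3 and DLK1, and 1 was higher, PEG10. Of 15361 genes with such a peak, 28.2% were lower and 55.9% higher, so that most genes with a peak went the way of PEG10. At DLK1 the tags themselves overlapped, at 28 and 34 with siCtrl against 29 and 23 with siKDM6B33. With the fold over the local background instead, 1 member was lower, KCNQ1OT1, and 2 were higher, IGF2 and PEG10, beside 18.1% and 57.9% of these genes. With summits within 100 bp of the place, H3K4me1 after knockdown was lower at 4 members, without H19, and higher at 1, beside 28.2% and 54.9% of 12997 genes. H3K27me3 after knockdown was then lower at 1, PLAGL1, and higher at 0, beside 55.8% and 8.05% of 3638 genes. With GSKJ4, H3K4me1 was lower at 5 and higher at 1, beside 35.8% and 14.2% of 7462 genes, and H3K27me3 was lower at 1 and higher at 1, beside 36.4% and 11.7% of 4541 genes.

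In the downstream flank of H19, around base 2008368, H3K4me1 peaks reached 1164 and 1131 times the genome background with siCtrl and 458 and 504 times with siKDM6B33. These summits did not share 1 place. Those with siCtrl and that of siKDM6B33 replicate 2 lay at 2008543 and that of siKDM6B33 replicate 1 at 2008370, where replicate 2 had 333 times. With summits within 100 bp of 2008368 only, siCtrl had no peak and H19 could not be compared after knockdown. With DMSO the peaks reached 1231 and 1221 times against 804 and 680 times with GSKJ4, and these 4 lay between 2008340 and 2008369. At MEG3 the peak at 101249375, in an intron 3628 bp after the first start, reached 1053 and 943 times with siCtrl and 430 and 523 times with siKDM6B33, and 738 and 621 times with DMSO against 384 and 393 times with GSKJ4. By this measure the peaks were lower in all treated libraries at MEG3 and around this place of H19, while the fold over the local background at MEG3 overlapped in both experiments, and that at H19 overlapped after knockdown. Inside the KCNQ1OT1 transcript, around 2697073, the peak reached 233 and 271 times against 112 and 124 times after knockdown, and 158 and 166 times against 91.3 and 107 times with GSKJ4. The last of these was read at 2696922, and a peak of the same height lay at 2697107 in that library.

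At the starts of KCNQ1OT1 and IGF2, chosen after their values had been seen, the H3K4me1 peaks went the other way after knockdown. The peak at 2721478, in the CpG-rich stretch at the KCNQ1OT1 start, reached 144 and 177 times background with siCtrl and 262 and 276 times with siKDM6B33, and the strongest KCNQ1OT1 peak of both siKDM6B33 libraries lay in that stretch. With DMSO it reached 229 and 124 times, and no peak was called there in either GSKJ4 library. The peak at 2158704, at an IGF2 start, reached 155 and 82.5 times with siCtrl and 281 and 266 times with siKDM6B33. Height after knockdown thus differed in direction between places of the same gene at both.

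At PEG10 the H3K4me1 peak at 94287169, in an intron 1311 bp after a start, held 18 and 33 tags with siCtrl and 82 and 81 with siKDM6B33, or 199.6 and 389 against 767 and 771 times background. With DMSO it held 13 and 15 tags and in GSKJ4 replicate 1 10, or 229 and 310 against 183 times. In GSKJ4 replicate 2 it held 6 tags, or 107 times, and a peak at 94287453 held 7, or 125 times. The directions were those of its island coverage. At the SNRPN start the peak at 25201492 held 3 tags in siCtrl replicate 1, 18 and 16 tags with siKDM6B33 and 2 tags in GSKJ4 replicate 2, and no peak was called there in the 4 other libraries.

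With GSKJ4, 8 members had the H3K4me1 peak in all 4 libraries, of which 5 were lower, H19, IGF2, KCNQ1OT1, MEG3 and PEG10, and 2 were higher, PEG3 and PLAGL1, beside 35.8% and 14.7% of 8916 genes. At PEG3 the tags themselves overlapped, at 4 and 3 with DMSO against 4 and 6 with GSKJ4. At PLAGL1 the summits of the DMSO libraries lay over 100 bp from those read in the GSKJ4 libraries, and it could not be compared within 100 bp. By the fold over the local background 4 were lower, without MEG3, and 1 was higher, PLAGL1, beside 28.3% and 15.6%. For H3K27me3 after knockdown, 4 members had the peak in all 4 libraries, and 1 was higher, H19, and 1 lower, PLAGL1, beside 8.37% and 55.2% of 4350 genes. With GSKJ4 there were 5, and again 1 was higher, H19, and 1 lower, PLAGL1, beside 11.3% and 36.6% of 5420 genes. By the fold over the local background, 2 were higher after knockdown, H19 and PEG10, and 1 lower, PLAGL1, beside 24.9% and 19.2% of genes, and 2 were higher with GSKJ4, H19 and IGF2, and 0 lower, beside 25.3% and 12.7%.

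In the same flank of H19, around 2008355, H3K27me3 peaks held 2 tags in both siCtrl libraries and 9 and 8 with siKDM6B33, or 50.6 and 49.9 against 167 and 151 times background. The summit of siCtrl replicate 2 lay at 2008479, and within 100 bp H19 could not be compared after knockdown. With DMSO they held 12 tags in both libraries and with GSKJ4 24 and 28, or 403 and 355 against 474 and 754 times. At PLAGL1 the H3K27me3 peak at 144384892 stood at 784 and 598 times background with siCtrl and 371 and 340 times with siKDM6B33, while its coverage was higher, and at 504 and 443 times with DMSO against 316 and 323 times with GSKJ4.

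**Figure D5:**
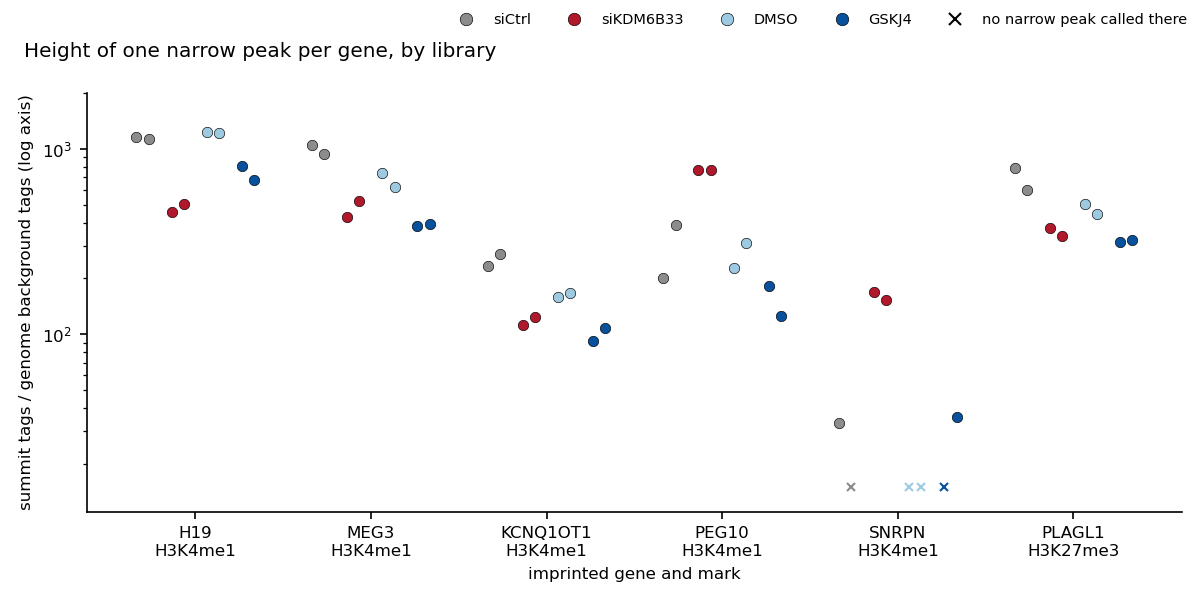
Height of 1 narrow peak per gene and mark, as summit tags over the genome background of the library (vertical log axis), in the 8 libraries of the mark; points are libraries, coloured by treatment, and crosses mark libraries with no summit within 300 bp of the place. For H3K4me1 at H19, MEG3 and KCNQ1OT1 the treated libraries lay below their controls, and at PEG10 the siKDM6B33 libraries reached 767 and 771.

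Other imprinted genes were counted in the same way. Of 25 imprinted genes that lie in the domains of the members, H3K27me3 coverage after knockdown was higher at 6 and lower at 0, beside 10.7% and 2.89% of all genes. Those with the largest differences were ATP10A, a phospholipid transporter gene (7.50% and 6.73% against 38.2% and 36.7%), MAGEL2 of the Prader-Willi region (14.8% and 24.7% against 43.6% and 26.3%), HYMAI (11.99% and 13.7% against 19.7% and 14.6%) and MKRN3, which encodes a ring finger protein (0 and 0 against 4.74% and 1.92%). MAGEL2, MKRN3 and ATP10A share the chromosome 15 domain with SNRPN, whose own window held no H3K27me3 island. KCNQ1 and ZIM2, named after their values had been seen, were the others, and these and HYMAI overlap a member, so they share islands with it. With GSKJ4 the list had 2 higher, RTL1 and DIO3, and 1 lower, PPP1R9A, beside 4.82% and 3.85% of all genes.

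H3K4me1 in these 25 genes was higher at 6 and lower at 6 after knockdown, beside 37.3% and 10.3% of all genes. Of the genes called in either experiment, SNURF, ZIM2, KCNQ1 and SGCE, named after their values had been seen, overlap a member. The INS window overlaps that of IGF2, so all of these share islands with members. RTL1, a retrotransposon-derived gene in the DLK1 and MEG3 domain, had 60.0% and 58.7% with siCtrl and 20.9% in both siKDM6B33 libraries, and DIO3, a deiodinase gene of the same domain, had 0 and 0 against 12.01% and 22.3%. INS had 85.1% and 92.5% against 81.3% and 65.5%, and CDKN1C, a cell cycle inhibitor, had 12.4% and 22.2% against 29.3% and 27.5%. With GSKJ4, 5 were higher and 3 lower, beside 9.26% and 7.77% of all genes, among them RTL1 with 27.7% and 40.5% against 46.4% and 52.3%, DIO3 with 31.7% and 16.3% against 35.2% and 36.0%, PHLDA2 with 14.2% and 18.9% against 0 and 10.4%, and INS with 86.9% and 83.2% against 88.8% and 91.6%. MEG8 and MEG9 of the same domain, named after their values had been seen, were lower after knockdown, with 19.01% and 19.01% against 11.1% and 10.7% and with 29.98% and 29.2% against 20.8% and 25.98%. With GSKJ4, MEG8 was higher, with 11.9% and 12.7% against 14.6% and 13.7%, and MEG9 overlapped.

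Of 15 imprinted genes elsewhere, H3K4me1 after knockdown was higher at 9 and lower at 2, again beside 37.3% and 10.3% of all genes. NNAT, a neuronal proteolipid gene, had 38.2% and 34.7% against 56.0% and 53.4%, GNAS, which encodes the stimulatory G protein, had 32.4% and 33.0% against 46.8% and 43.9%, and ZNF331 had 0 and 0 against 7.43% and 9.41%. WT1 was lower, with 24.8% and 21.5% against 11.8% and 6.79%. With GSKJ4, beside 9.26% of all genes higher and 7.77% lower, 1 was higher, BLCAP, with 9.02% and 5.77% against 16.6% and 12.6%, and 2 were lower, GNAS, with 29.95% and 14.9% against 11.6% and 11.8%, and RB1, with 0.443% and 1.46% against 0 and 0. For H3K27me3, beside 10.7% of all genes, 1 of the 15 was higher after knockdown, GRB10, a growth factor receptor adaptor, with 18.1% and 15.3% against 24.5% and 31.2%. None separated with GSKJ4, beside 4.82% of all genes higher and 3.85% lower.

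Genes for proteins that keep imprints were also read as a list of 10. H3K4me1 was higher at 2 and lower at 1 after knockdown, beside 37.3% and 10.3% of all genes, and higher at 0 and lower at 2 with GSKJ4, beside 9.26% and 7.77%. TRIM28, the corepressor that ZFP57 recruits, had 25.1% and 24.3% with siCtrl and 64.1% and 64.9% with siKDM6B33, and 25.1% and 23.6% with DMSO against 15.3% and 17.6% with GSKJ4. DNMT1, the maintenance methyltransferase, had 9.33% and 8.99% against 8.14% and 8.65% after knockdown and 7.29% and 6.10% against 2.88% and 1.53% with GSKJ4, and CTCF had 3.10% and 3.72% against 11.25% and 6.204% after knockdown. H3K27me3 was higher at 1 in each experiment, beside 10.7% of all genes after knockdown and 4.82% with GSKJ4, at DPPA3 after knockdown (0 and 0 against 44.2% and 28.3%) and at TRIM28 with GSKJ4 (0 and 0 against 12.3% and 28.8%). At HAND2 and GATA3, H3K4me1 was higher after knockdown and lower with GSKJ4. HAND2 had 59.4% and 56.5% against 100% in both siKDM6B33 libraries, and 34.0% and 51.0% against 21.4% and 32.5% with GSKJ4. H3K27me3 at HAND2 was higher with GSKJ4, with 15.04% and 20.6% against 21.4% and 23.8%.

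The 3 best covered members were taken by mean coverage over all 16 libraries, which pools both marks and both experiments. The genes on other chromosomes whose coverage was most like theirs were found by the root mean square difference over the same 16 libraries. For IGF2 they were KCNC4-DT (6.95 percentage points) and FOXO6-AS1 (7.70), for DLK1 LINC02875 (4.92) and FAIM2 (4.93), and for MEG3 the unnamed lncRNAs ENSG00000290095 (3.28) and ENSG00000286886 (3.67). None of the 6 was on the lists of imprinted genes used here.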

How the data were processed

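CUT&Tag of H3K27me3 and H3K4me1 was measured in 16 BE2C libraries, each with 2 region lists made by the authors. Per the labels' processing notes, reads were trimmed, aligned to hg19 and filtered with Trim Galore 0.4.4, BWA 0.7.12, Picard 1.65, SAMtools 1.3.1 and bedtools 2.25.0. The authors called islands with SICER 1.1 and deposited a score for each; bounds lie in steps of 200 bp, with gaps of at least 800 bp. The authors called narrow peaks with MACS2 2.1.1 (another version is named in the study's methods) and deposited the fold over the local background, the −log10 p and the −log10 q of each peak (at least 1.30). Both lists were called per library, and replicates were not pooled. The authors' read-level tests scaled to E. coli reads were not used here, and the lists hold no read totals.

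Gene bodies (GENCODE 44 lifted to hg19) with 10 kb on each side gave the island coverage and the number of narrow peak summits per gene (Python 3.11.15, NumPy 2.4.6, pandas 2.3.3, SciPy 1.17.1, Matplotlib 3.10.9). Groups were called apart where both treated libraries lay above or below both controls, and tested by the exact two-sided permutation test. Whole summit tags were solved from fold and −log10 p for 752 of 752 narrow peaks in the windows, and heights are these tags over the genome background of the library (0.0298 to 0.107 tags). Heights were compared where all 4 libraries had a peak with a summit within 300 bp of the commonest one, and were added after the data had been seen. The share of CpG-rich stretches over all starts was added after the data had been seen. These stretches were joined from 500 bp windows with at least 55% GC and an observed over expected CpG of 0.65, and a joined stretch can fall below these limits (50.4% to 72.3% GC, 0.608 to 0.957). The scripts were tested on simulated data.

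All 10 members are named, and of other lists the genes with the largest differences among those whose groups were apart. The members, lists and tests were chosen with earlier results of these data known. Alternatives were other flanks, island sizes and joins, peak thresholds, equal covered length or peak number, the replicate block and leaving out each library. Some genes of the lists are not reported here.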

Additional observations from a re-analysis of the deposited data

Results flagged for a closer look

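The values given here were picked out because every treated library moved one way against its controls in the knockdown experiment and the other way in the compound experiment, all in H3K4me1. The difference between the experiments was not tested in any of them, and the share of all genes that moved in opposite directions was not counted. The island coverage of PEG10 differed by 8.69 percentage points after knockdown and by −15.6 with GSKJ4, and the height of its strongest narrow peak by 474.5 and −115.6 times the genome background. Among the listed genes, GATA3 differed by 23.3 and −14.7 percentage points, HAND2 by 42.0 and −15.6, GNAS by 12.7 and −10.7, TRIM28 by 39.8 and −7.88, SLC22A18 by 9.23 and −4.17 and RB1 by 0.665 and −0.9503. The order was the opposite at RTL1 (−38.4 and 15.2), INS (−15.4 and 5.13), MEG8 (−8.11 and 1.89) and KCNQ1 (−5.11 and 3.42).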

How the results depend on the processing

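Of 220 counts recomputed under alternatives, 156 stayed within 1.5 times, and of 420 coverage differences 371 moved by less than 1 SD. At equal covered length the differences of DLK1 (H3K27me3, knockdown) and PLAGL1 (H3K4me1, GSKJ4) reversed to −2.46 and −0.485 percentage points. For H3K27me3 after knockdown, the 5 members with higher coverage became 3 with no flank, 2 at equal covered length and 2 outside H3K4me1 islands. The 0 with lower coverage became 1 at equal covered length, and the 0 with fewer peaks became 1 at an equal number of peaks. For H3K27me3 with GSKJ4, the 1 with higher coverage became 2 at equal covered length, and the 0 with lower coverage became 1 there and 1 outside H3K4me1 islands. The 1 with more peaks became 3 and 2 at a −log10 q of 2 and 5, and 2 with a flank of 5 kb. For H3K4me1 with GSKJ4, the 2 with higher coverage became 1 with no flank, with islands of at least 2 kb or at equal covered length, and 4 with islands joined over 2 kb. The 0 with more peaks became 2 with a flank of 5 kb, and the 1 with fewer became 2 at a −log10 q of 5 or an equal number of peaks. For heights read as fold over the local background, the counts of higher members became 2 for H3K27me3 in each experiment, and 2 and 1 for H3K4me1 after knockdown and with GSKJ4. The counts of lower members became 0 for H3K27me3 with GSKJ4 and 1 for H3K4me1 after knockdown. With summits within 100 bp of the commonest place, the 1 higher member for H3K27me3 after knockdown, H19, became 0 and the 2 for H3K4me1 with GSKJ4 became 1, without PLAGL1, since fewer libraries then had a peak. The 5 lower for H3K4me1 after knockdown became 4, without H19. The cause of the other shifts was not tested. The height and outside-island alternatives were chosen after seeing the data.

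Replicate numbers are shared between groups, and the labels do not say whether equal numbers share a culture or day. The replicate differences of treated and control libraries correlated at 0.00188, 0.0943, 0.00344 and −0.0749 over genes. Such correlations cannot show whether equal numbers were paired, and the libraries were treated as unpaired. With the replicate block, H3K27me3 with GSKJ4 gave 2 members with higher coverage, 1 lower and 2 with higher peaks, and H3K4me1 with GSKJ4 gave 2 with fewer peaks. No other count moved by over 1.5 times.

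Leaving out each library in turn can by construction only keep or raise a count. For H3K27me3 after knockdown, the ranges were 0 to 1 for lower coverage (1 without siKDM6B33 replicate 1), 3 to 5 for more peaks (5 without either siKDM6B33 library), 0 to 2 for fewer peaks (2 without siCtrl replicate 1), 1 to 3 for higher peaks (3 without siCtrl replicate 1, 2 without siKDM6B33 replicate 1) and 1 to 2 for lower peaks (2 without siCtrl replicate 2). For H3K27me3 with GSKJ4 they were 1 to 3 for higher coverage (3 without GSKJ4 replicate 1 or DMSO replicate 2), 0 to 3 for lower coverage (3 without DMSO replicate 1), 2 to 4 for more peaks (4 without GSKJ4 replicate 2 or DMSO replicate 2), 1 to 3 for higher peaks (3 without GSKJ4 replicate 1 or DMSO replicate 1) and 1 to 2 for lower peaks (2 without DMSO replicate 2). For H3K4me1 after knockdown they were 2 to 4 for lower coverage (4 without siCtrl replicate 1) and 1 to 2 for higher peaks (2 without either siCtrl library). With GSKJ4 they were 2 to 4 for higher and for lower coverage (4 without GSKJ4 replicate 1), 1 to 2 for more peaks (2 without GSKJ4 replicate 2 or DMSO replicate 1) and 2 to 3 for fewer peaks (3 without GSKJ4 replicate 1 or DMSO replicate 1).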
